A study of Mus musculus with 6 samples.

Results

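Lck, Zap70, Lat, Cd28, Skap1, Themis, Fyb and Lcp2 encode proteins that act at or just below the T cell receptor. The 8 genes were chosen by name, with no measured value in the rule, but with earlier results of these data known. All 8 were listed in each of the 6 libraries among 20279 genes listed in all. When the receptor meets its antigen, the kinase Lck phosphorylates the CD3 chains, and Zap70 docks there and phosphorylates the membrane scaffold Lat and the adaptor Lcp2, also called SLP-76. Fyb, also called ADAP, and Skap1 form a pair that links Lcp2 to integrin adhesion. Themis is an adaptor that binds Grb2 and the phosphatase encoded by Ptpn6 and is needed in the thymus, and Cd28 is the costimulatory receptor of T cells. NK cells share several of these proteins, whereas B cells use Syk, Lyn and Blnk below their own receptor.

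Single-cell libraries carried the label spleen and came from female C57BL/6 mice (the strain is in the series text) at an age of 10 weeks, with no genotype or drug treatment named. Each of 3 protocols had 2 libraries: kit v3.1 for 3′ ends, kit v2 for 5′ ends (standard), both from 10x Genomics, and a modified form of the latter. In the modified form, reverse transcription and cDNA amplification received 1 µl more of 10 mM dNTP, and the changes lengthened the reverse transcription from 45 min to 2 h and lengthened the PCR extension from 1 to 3 min. All cDNA was left unfragmented and read on Nanopore PromethION flow cells. For the replicate 2 libraries the protocol text describes collagenase-isolated pancreatic islets although the label is spleen. The labels do not say that replicates were separate animals. The p-values between protocols therefore measure only the spread between libraries. Those between cell classes of the same libraries measure only how far the class differences vary among libraries.

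The libraries held 723341 to 2627253 counts each, and the median kept cell 332 to 606. Standard 5′ replicate 1 stood apart, with 861 kept cells against 2022 to 4045 in the other libraries. Summed erythroid markers were at 39334 to 68762 counts per 1000000 counts (CPM) in replicate 1 libraries and 393 to 1284 in replicate 2, and summed pancreas markers were at 2.50 to 39.0 CPM in the 6 libraries. Library pairs shared 0 to 16 cell barcodes, and no pair agreed within sampling noise (the smallest chi-square per degree of freedom was 3.26).

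Cells were assigned by raw counts of marker genes that include no member. The T gate held 4394 cells (at least 2 counts of CD3 or T cell receptor constant genes and no B marker), the B gate 8266, the NK gate 337 and the myeloid gate 351, and 2230 kept cells met no gate. Genes not used in the gates checked them. The 9 summed T check genes (such as Cd5, Tcf7 and Il7r) were at 4929 to 5508 CPM in T-gated, 2473 to 3804 CPM in NK-gated, 263 to 388 CPM in B-gated and 0 to 117 CPM in myeloid-gated cells, Cd2 standing at 51.1% of its T level in B cells. By library, the summed B check genes (such as Pax5 and Cd74) were at 23842 to 53046 CPM in B-gated and 115 to 358 CPM in T-gated cells. In NK-gated cells the NK check genes (such as Nkg7 and Eomes) were at 29990 to 51635 CPM, against 1806 to 2704 CPM in T-gated cells. Of the 9 T check genes, Cd5, Cd6 and Bcl11b had 0 counts in the NK gate, with 232, 136 and 244 CPM in the T gate. Il7r, Tcf7 and Lef1 stood at 3.07%, 11.6% and 17.2% of their T level in NK cells, and Cd247, Cd2 and Ms4a4b, which NK cells also express, at 60.0%, 98.4% and 118%. In the myeloid gate the myeloid check genes were at 19374 to 31190 CPM, the B check genes at 10560 to 27918 CPM and the NK check genes at 5068 to 8306 CPM, and in the NK gate the myeloid check genes were at 6364 to 12669 CPM. The NK and myeloid check lists share Tyrobp and Fcer1g, so the sum of each list in the other gate does not measure other cells alone. The B check list holds the MHC class II genes Cd74 and H2-Aa, and their part in the B check sum of the myeloid gate was not tested. The part of other cells in the NK and myeloid levels was not tested either. The B check genes in the NK gate were at 3494 CPM in 3′ replicate 2 and at 50.5 to 239 CPM in the others. No doublet caller was run, and cells with markers of both T and B cells fell outside the gates. Those with at least 2 T marker counts and a B marker were 18 to 87 per library. Cells with B markers and fewer T marker counts also fell outside and are not in that number. The B gate thus held only cells with no T marker count. The effect of this on the member counts in B-gated cells was not tested.

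Promoter letters are shown because the 8 genes were all higher in T-gated than in B-gated cells. In GENCODE M21 (GRCm38, the assembly named mm10 in the submitters' processing notes) Lck lies at chr4:129548344-129573641 on the minus strand, Zap70 at chr1:36761798-36782818 (plus), Lat at chr7:126363824-126369570 (minus) and Lcp2 at chr11:34046920-34092295 (plus). Fyb lies at chr15:6522853-6663313, Skap1 at chr11:96464593-96759130, Themis at chr10:28668360-28883818 and Cd28 at chr1:60716800-60773359, all on the plus strand. RefSeq promoters (GRCm38.p6, the 250 bases before a start site) were matched for 6 of the 8 genes, 10 promoters in all. Each was searched on both strands for the ETS core GGAAGT and the RUNX core TGTGGT, which are in capitals below. The following 4 are both Lck starts (a distal and a proximal Lck promoter are known in mice), the Zap70 promoter that holds both cores, and Lat, which holds neither. They are printed 5′ to 3′ on the gene's strand.
Lck at chr4:129573642-129573891: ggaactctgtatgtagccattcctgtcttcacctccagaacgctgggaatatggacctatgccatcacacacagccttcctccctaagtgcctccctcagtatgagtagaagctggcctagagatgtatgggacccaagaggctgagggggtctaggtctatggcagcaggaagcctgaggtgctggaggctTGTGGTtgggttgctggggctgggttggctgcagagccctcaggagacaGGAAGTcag
Lck at chr4:129558373-129558622: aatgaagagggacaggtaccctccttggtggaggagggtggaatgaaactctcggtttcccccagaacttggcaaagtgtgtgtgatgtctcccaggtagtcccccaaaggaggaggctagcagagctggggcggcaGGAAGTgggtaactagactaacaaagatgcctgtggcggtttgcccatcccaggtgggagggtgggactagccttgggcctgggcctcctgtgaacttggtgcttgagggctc
Zap70 at chr1:36764265-36764514: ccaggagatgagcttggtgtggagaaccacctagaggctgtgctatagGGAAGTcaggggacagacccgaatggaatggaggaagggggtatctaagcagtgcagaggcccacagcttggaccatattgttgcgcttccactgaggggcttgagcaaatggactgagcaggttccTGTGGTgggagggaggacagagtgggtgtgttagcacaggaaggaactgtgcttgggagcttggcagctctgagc
Lat at chr7:126369569-126369818: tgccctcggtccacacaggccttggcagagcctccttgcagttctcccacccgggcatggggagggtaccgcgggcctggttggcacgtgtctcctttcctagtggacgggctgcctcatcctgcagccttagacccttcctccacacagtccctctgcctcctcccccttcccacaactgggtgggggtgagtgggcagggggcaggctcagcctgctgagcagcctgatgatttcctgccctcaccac
The ETS core was in 3 of the 10 member promoters and in 19.7% of 32851 RefSeq mouse promoters of that length. The RUNX core was in 2 of 10 and in 14.0% of all, the TCF/LEF core CTTTGA in 2 of 10 and in 13.8%, and the GATA core AGATAA in 2 of 10 and in 9.99%. All ETS and RUNX matches were in Lck and Zap70 promoters. The Zap70 promoters at chr1:36761548-36761797 and chr1:36778734-36778983, not printed, hold neither core. The Themis promoters at chr10:28668110-28668359 and chr10:28668145-28668394 overlap and were each counted. A match is a string of letters only, and counts per gene do not tell which start was used.

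Most counts of every member came from T-gated cells. Of all counts in kept cells, the T gate held 85.6% for Lat, 82.9% for Cd28, 80.8% for Skap1, 80.5% for Themis, 79.4% for Lck, 75.2% for Zap70, 68.9% for Lcp2 and 67.4% for Fyb, while T-gated cells were 26.5 to 33.2% of kept cells. Counts were sparse in single cells. Lck was seen in 1652 of 4394 T-gated cells (37.6%), Lat in 36.4%, Skap1 in 30.3%, Fyb in 28.6%, Cd28 in 13.4%, Zap70 in 10.1%, Lcp2 in 9.29% and Themis in 8.90%. The corresponding shares of B-gated cells ran from 0.0605% (Lcp2) to 1.29% (Lck), with median depths of 302 to 707.5 counts per T-gated cell and 345.5 to 559 per B-gated cell across libraries. After cells were thinned to 300 counts, 58.7 to 69.5% of T-gated cells per library had a count of any member. This share was 33.3 to 50.7% of NK-gated, 19.3 to 28.6% of myeloid-gated and 0.837 to 1.95% of B-gated cells. Cells under 300 counts were left out. In standard 5′ replicate 1 these were 136 of 286 T-gated, 8 of 14 NK-gated and 113 of 352 B-gated cells. At that depth the most members seen in 1 T-gated cell was 4 or 5, depending on the library.

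All 8 members were higher in T-gated than in B-gated cells. Their median log2 difference was 6.18, against -0.0048 over the 3200 genes tested. Across those genes 26.2% were called higher in T cells and 51.9% in either direction, with sums per library and gate as the samples and the library as a block. Levels below are CPM after TMM scaling.

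**Figure D1:**
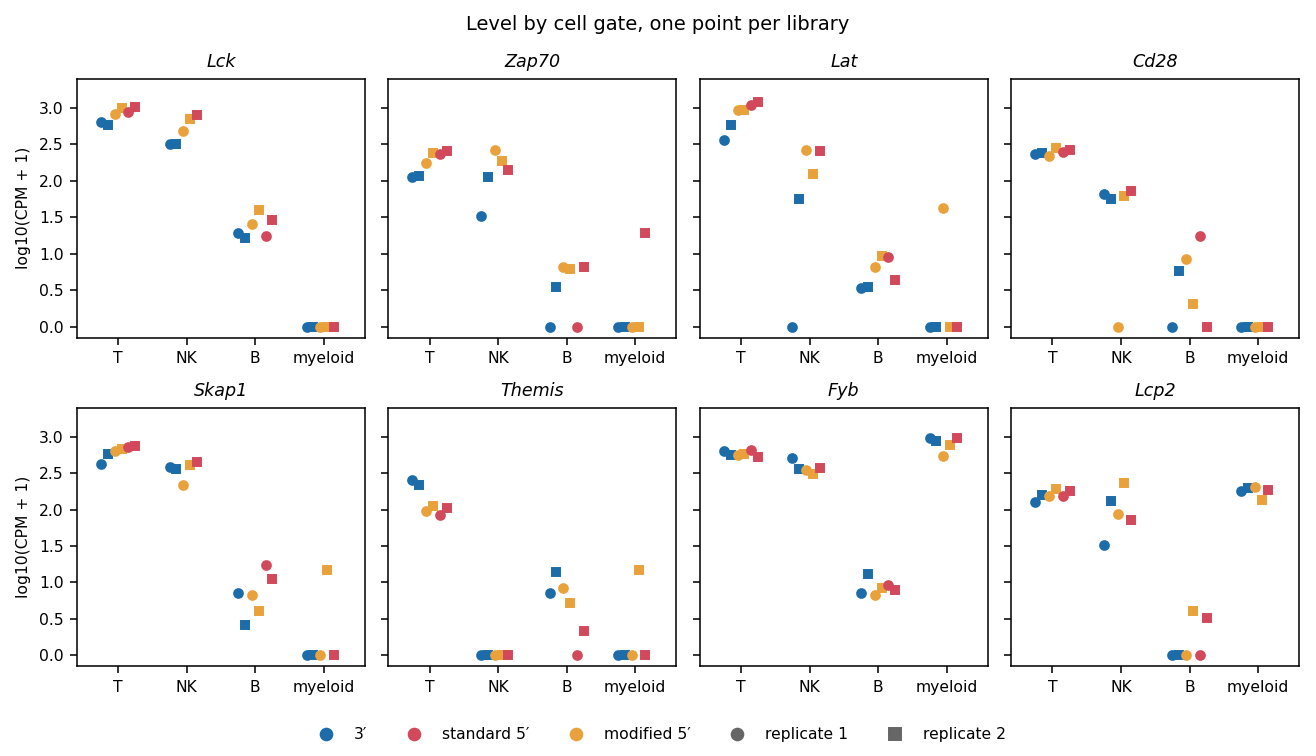
Level of each member by cell gate, as log10(CPM + 1), with 1 point per library (colour gives the protocol and shape the replicate; sums of under 20 cells are left out). All 8 genes are high in T cells and low in B cells, Themis is at 0 in all NK points, and Fyb and Lcp2 reach the T level in myeloid cells, Fyb lying above T in 4 of 5 libraries and Lcp2 also in 4 of 5.

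For the kinases, Lck stood at 638 and 588 CPM in T cells of the 3′ libraries (replicates 1 and 2), 893 and 1038 in standard 5′ and 833 and 1001 in modified 5′. The B-gated levels were 18.2, 15.5, 16.2, 28.3, 24.4 and 38.5 CPM in the same order. Every T value lay above every B value, and the log2 difference was 5.04 ± 0.10 (SE; adjusted p = 1.4e-39). Zap70 stood at 111, 114, 236, 258, 174 and 240.1 CPM in T cells and at 0 to 5.65 CPM in B cells, with 0 counts in both replicate 1 libraries of the 3′ and standard 5′ protocols. Its log2 difference was 5.53 ± 0.21 (adjusted p = 9.1e-30).

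Among the adaptors, Lat had the largest T to B difference of the 8. It stood at 362, 579.7, 1088, 1218, 935 and 933 CPM in T cells and at 2.43 to 8.32 CPM in B cells, a log2 difference of 7.38 ± 0.15 (adjusted p = 1.3e-41). Lcp2 stood at 125 to 192 CPM in T cells and had 5 counts over all B-gated cells, with 0 in 4 libraries (log2 6.80 ± 0.27). Skap1 stood at 427 to 735 CPM in T and 1.63 to 16.2 CPM in B cells (log2 6.76 ± 0.15), and Fyb at 523 to 647 and 5.64 to 12.2 CPM (log2 6.08 ± 0.13). The costimulatory receptor Cd28 stood at 222 to 279 CPM in T cells and 0 to 16.2 CPM in B cells (log2 6.28 ± 0.23). Themis had the smallest difference, 4.54 ± 0.20, with 82.1 to 254 CPM in T and 0 to 13.0 CPM in B cells. For none of the 8 genes did a B value reach a T value.

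The residual counts in B-gated cells were not in 1 ratio to the T level. Pooled over libraries, the B level was 2.83% of the T level for Lck (exact 95% interval 2.31 to 3.42%), 3.83% for Themis (2.55 to 5.55%), 1.84% for Zap70, 1.33% for Fyb, 1.07% for Cd28, 0.808% for Skap1, 0.637% for Lcp2 and 0.516% for Lat (0.315 to 0.799%). Intervals cover counting error only. Within libraries the Lck value (1.60 to 3.56%) was above the Lat value (0.256 to 0.826%) in 6 of 6. For Themis the B level was 0 to 7.45% of the T level by library, so its place rests on few counts (30 in all, 16 of them in 3′ replicate 2). A comparison chosen after these values were seen split the B gate by Lck. In the 107 B-gated cells with a Lck count, the other 7 members had 2 counts (23.2 CPM) and the B check genes 37952 CPM. In the 8159 without Lck the other 7 members had 143 counts (29.9 CPM) and the B check genes 40950 CPM, and in T-gated cells these were 2730 and 213 CPM. With 2 counts, a small difference between B-gated cells with and without Lck was not detectable at this depth. Both levels lay far below the 2730 CPM of T-gated cells.

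Other genes of the pathway divided by receptor type. Of the 8 tested receptor and coreceptor genes that were no gate markers, 8 were higher in T cells, and of the 11 tested B cell counterparts 11 were lower. Of 12 kinases and phosphatases 10 were higher and 2 lower, and of 18 adaptors and effectors 7 were higher and 9 lower. The 6 genes with the largest fitted differences were Cd6, Syk, Bank1, Blk, Btk and Cd8b1. Cd6, a T cell surface receptor, had 368 counts in T and 0 in B cells, at least 220-fold higher in T cells by the limit of 3 counts over the gate. The kinase Syk, the B cell counterpart of Zap70, had 3 counts in T and 2313 in B cells, 430.1-fold higher in B (exact 95% interval 147 to 2087), and Btk, a kinase below the B cell receptor, had 2 and 754 (210.3-fold, 58.0 to 1740). The log2 difference was -8.18 ± 0.20 for the scaffold Bank1, -7.95 ± 0.21 for the kinase Blk and 6.92 ± 0.16 for Cd8b1. The near relatives of the members also fell on either side. Fyn, the second Src-family kinase of T cells (2.66 ± 0.17), and Grap2, which joins Lat to Lcp2 (1.64 ± 0.09), were higher in T cells. Skap2 (-2.15 ± 0.25), Lat2 (-4.79 ± 0.22) and Blnk (-3.93 ± 0.15), the relatives of Skap1, Lat and Lcp2, were lower. So was Themis2, the relative of Themis, with 3 counts in T and 235 in B cells (43.7-fold higher in B, 14.8 to 213).

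In NK-gated cells Themis was not seen, Lat and Cd28 were well below T cells, and Lck, Skap1 and Fyb were lower by smaller amounts. Of the 8 genes 6 were called higher in T than in NK cells and 0 lower, and the median log2 difference was 0.65 against 0.09 over all genes (12.8% called higher and 9.78% lower, 22.6% in all). By library totals 308 genes were higher and 411 lower in place of 411 and 313. Standard 5′ replicate 1 had 14 NK-gated cells and was left out of the NK sums.

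Themis had 0 counts among 181698 NK counts, at 161 CPM pooled over T cells, which with the limit of 3 counts that a count of 0 allows is at least 9.75-fold lower in NK cells. Lat stood at 0, 56.0, 259, 262 and 124 CPM in NK cells of 3′ replicates 1 and 2, standard 5′ replicate 2 and modified 5′ replicates 1 and 2, below the T value of the same library in 5 of 5 (log2 2.61 ± 0.22, adjusted p = 2.7e-14). Cd28 stood at 64.2, 56.0, 70.6, 0 and 61.9 CPM in NK cells, again below T in each library (log2 2.15 ± 0.40, adjusted p = 2.5e-05). The NK sums held only 26 Lat and 11 Cd28 counts, 337 NK-gated cells giving 28 and 12 in all.

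Lck was lower in NK cells by a smaller amount, at 321, 317, 799.8, 480.2 and 702 CPM (T above NK by log2 0.62 ± 0.14, adjusted p = 6.5e-04). Skap1 stood at 385, 355, 447, 218 and 413 CPM (0.68 ± 0.17, adjusted p = 0.0017) and Fyb at 514, 355, 376, 349 and 309.7 CPM (0.60 ± 0.17, adjusted p = 0.0049). The T and NK ranges of Fyb came within a few CPM of each other (523 and 514). Zap70, a kinase that NK cells use below their ITAM receptors, stood at 32.1 to 262 CPM in NK cells and differed by 0.35 ± 0.28 (adjusted p = 0.44). Lcp2 stood at 32.1 to 227 CPM and differed by 0.43 ± 0.31 (adjusted p = 0.39). Neither passed the test, and both ranges overlapped those of T cells. Thinned to 300 counts per cell, 3 of the 7 members then tested kept their call (Lck, Lat and Cd28), Skap1 and Fyb lost it (adjusted p = 0.12 and 0.063), and Themis no longer passed the low-count filter. By library totals the Fyb difference was 0.42 (adjusted p = 0.057).

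Against B cells, 7 of the 8 members were higher in NK cells, where 13.9% of genes were called higher and 32.9% either way (by library totals 634 higher and 427 lower in place of 446 and 606). The log2 differences ran from 4.12 ± 0.78 for Cd28 to 6.37 ± 0.60 for Lcp2, and Themis, with 0 NK counts and 30 B counts, was not called (adjusted p = 0.28). Among near relatives, Fyn was lower in T than in NK cells (-1.13 ± 0.24), as were Syk (3 counts in T and 30 in NK cells, 147-fold higher in NK, exact 95% interval 45.9 to 755), Lat2 (-5.37 ± 0.40) and Skap2 (-1.79 ± 0.68, adjusted p = 0.049), while Grap2 (1.66 ± 0.28) was higher in T cells. Over the lists, 7 of 8 receptor and coreceptor genes were higher in T than in NK cells, 3 of 12 kinases and phosphatases were higher and 3 lower, 1 of 18 adaptors and effectors was higher and 2 lower, and 6 of 11 B cell counterparts were lower.

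In myeloid-gated cells the members split into a group that was near absent and a pair that was not. Of the 8 genes 6 were higher in T than in myeloid cells (22.8% of genes called higher) and 1 was lower (22.1%; 44.9% in all). Lck and Cd28 had 0 counts in the myeloid gate, at least 78.3-fold and 24.2-fold below their T levels. Zap70, Lat, Skap1 and Themis had 1 count each, with T to myeloid ratios of 52.0 (exact 95% interval 9.28 to 2056), 232 (41.5 to 9148), 178 (31.8 to 7020) and 46.8 (8.36 to 1853). Fyb stood at 960.2, 867, 952, 536 and 777 CPM in myeloid cells, against 636, 566, 523, 567 and 575 CPM in T cells of the same libraries. It was higher in myeloid cells in 4 of 5 libraries, modified 5′ replicate 1 (13 myeloid counts) being the exception, and T was lower by log2 -0.61 ± 0.12 (adjusted p = 1.5e-05). With no low-count filter that difference was -0.21 (adjusted p = 0.37). Lcp2 stood at 178, 198, 183, 206 and 136 CPM in myeloid and 125 to 192 CPM in T cells, and the difference of -0.14 ± 0.24 did not pass the test (adjusted p = 0.69). By pooled CPM the order of the gates was T, NK, B for Lck, Zap70, Lat, Cd28, Skap1, Fyb and Lcp2, the T and NK levels of Zap70 and Lcp2 not differing beyond their spread. For Fyb myeloid cells came before T cells, and for Lcp2 they stood beside them. Themis was at 6.16 CPM in B cells and at 0 in NK cells, where the depth allows up to 16.5 CPM, so those gates could not be ordered.

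The kinases and Lat were higher, and Themis lower, in the standard 5′ than in the 3′ libraries. Within T-gated cells 3 members were called higher (Lat, Zap70, Lck) and 1 lower (Themis) of 8, with a median log2 difference of 0.43 against -0.07 over 7730 genes. Of those genes 10.1% were called higher and 12.1% lower, 22.2% in all. Scaled by library totals without TMM factors, 481 genes were higher and 1415 lower in place of 783 and 936, and the median of all genes was then -0.29. By DESeq2 349 were higher and 185 lower.

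**Figure D2:**
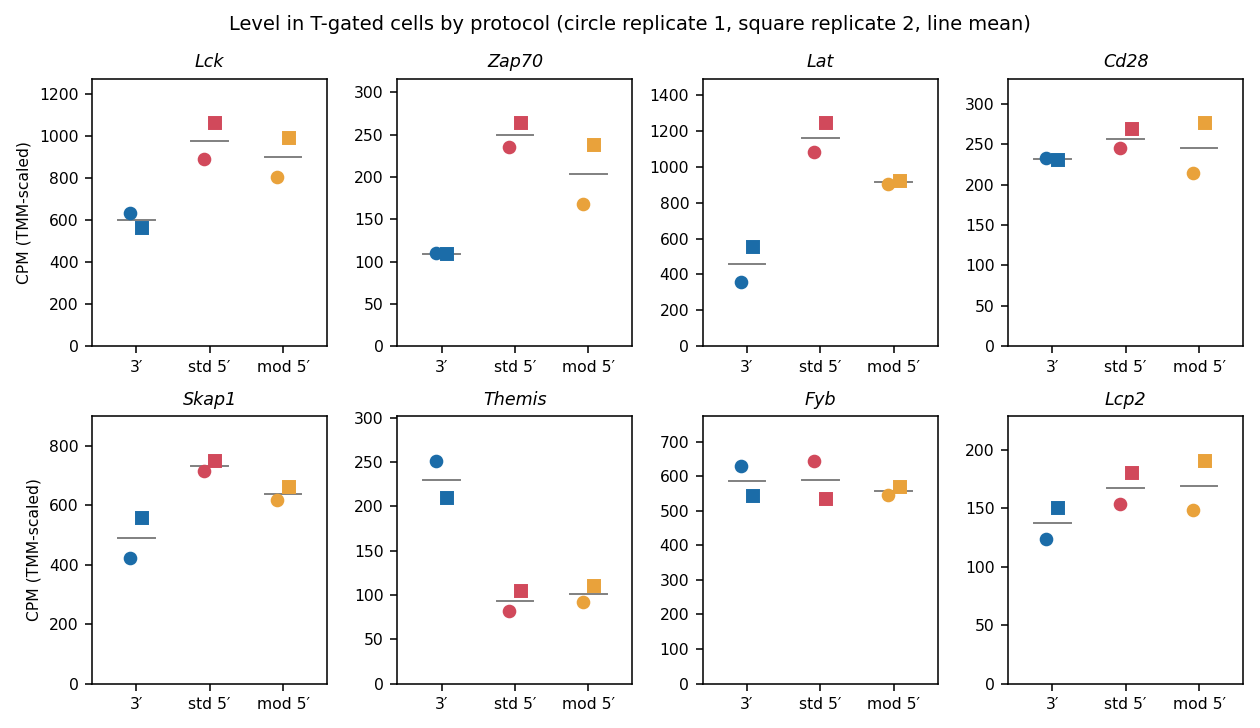
CPM of each member in T-gated cells, by protocol, with circles for replicate 1, squares for replicate 2 and a line at the mean of both. Lat, Zap70 and Lck lie higher in both 5′ protocols than in 3′, Themis lies lower, and the points of Fyb overlap.

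Lat had 359 and 556 CPM in the 3′ T cells and 1085 and 1243 in standard 5′, 457 ± 139 against 1164 ± 112 (SD, n = 2 libraries each). The ranges did not overlap, the log2 difference was 1.32 ± 0.25 (adjusted p = 3.4e-04), and within replicates 1 and 2 it was 1.57 and 1.15. Zap70 had 109.8 and 109 CPM in 3′ against 235 and 263 in standard 5′ (log2 1.19 ± 0.26, adjusted p = 0.0019; 1.03 and 1.20 within replicates). Lck had 633 and 564 CPM against 890.4 and 1059 (0.69 ± 0.24, adjusted p = 0.034; 0.49 and 0.90 within replicates). Themis went the other way, from 252 and 209 CPM to 81.9 and 105 CPM (230 ± 30.0 against 93.4 ± 16.3, mean ± SD). Its log2 difference was -1.23 ± 0.28 (adjusted p = 0.0024), with -1.51 and -0.93 within replicates. The standard 5′ values of Themis rest on 8 and 57 counts.

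The other 4 genes did not pass the test. Skap1 had 423 and 557 CPM in 3′ and 716 and 749 in standard 5′, which do not overlap, but its difference of 0.56 ± 0.24 had an adjusted p of 0.087. Cd28 had 234 and 230.5 against 246 and 269 CPM (0.14 ± 0.25), Lcp2 124 and 151 against 154 and 180.4 CPM (0.30 ± 0.27), and Fyb 631 and 542 against 645 and 534 CPM (-0.04 ± 0.24). The sign of Cd28 turned to -0.07 with library totals. The Lck call was lost with library totals (adjusted p = 0.13), with no low-count filter (0.11) and without either 3′ library (0.086 and 0.11) or standard 5′ replicate 2 (0.43). Without standard 5′ replicate 2, 1 member (Lat) was called in T cells, with Zap70 at an adjusted p of 0.16 and Themis at 0.093.

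Over all kept cells, where the share of T cells also enters, the standard 5′ libraries had 4 of 8 members higher (12.5% of 11546 genes) and 1 lower (10.8% of genes; 23.3% called in all). By library totals the split over all genes was 557 higher and 2641 lower, against 1443 and 1246 with TMM, with a median of -0.39. The log2 differences were 1.60 ± 0.25 for Lat, 1.49 ± 0.22 for Zap70, 1.05 ± 0.21 for Lck, 0.81 ± 0.22 for Skap1 (adjusted p = 0.026) and -1.04 ± 0.23 for Themis. T-gated cells made up 26.5 and 27.4% of kept cells in the 3′ libraries and 33.2 and 29.6% in the standard 5′ libraries. The part of this share in the differences over all cells was not tested, and within T cells the Lat, Zap70 and Lck differences were smaller. The T gate itself counts CD3 and T cell receptor constant genes. Over all kept cells 7 of 13 receptor and coreceptor genes, CD3 genes among them, were higher in standard 5′ than in 3′ and 1 was lower. Whether the gate took up cells unequally by protocol was not tested. Calls fell to 3 members with library totals, to 3 without 3′ replicate 1 and to 2 without standard 5′ replicate 2. The Skap1 call was lost in each of these, over all barcodes and without standard 5′ replicate 1 or modified 5′ replicate 1 (adjusted p = 0.060 to 0.20).

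**Figure D3:**
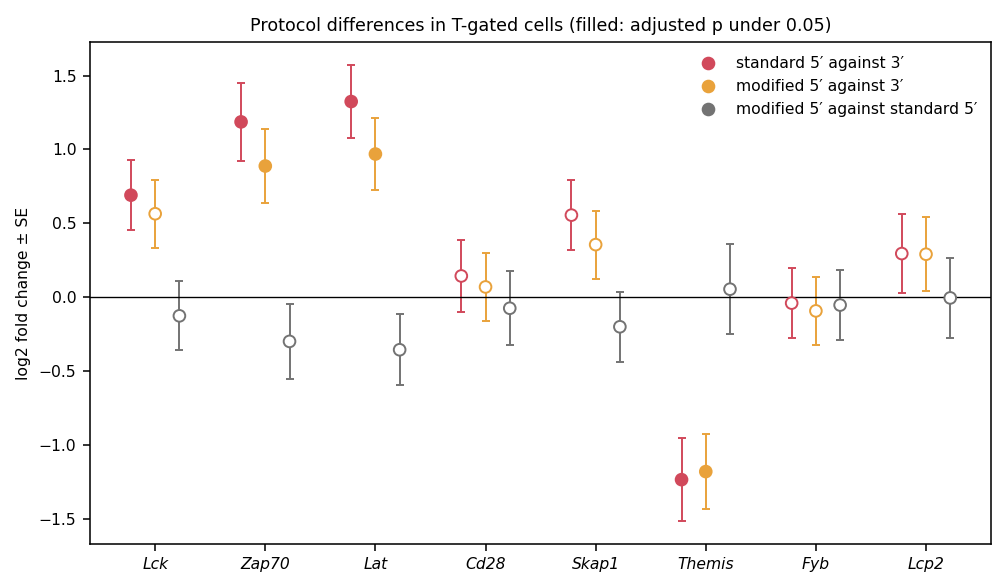
Log2 fold change ± SE of each member between protocols in T-gated cells, with filled points where the adjusted p was under 0.05. Lat, Zap70 and Themis pass against 3′ with either 5′ protocol, Lck passes with the standard protocol, and no grey point (modified against standard 5′) passes.

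The modified 5′ protocol gave T cell means between those of 3′ and standard 5′ for 6 of the 8 members, with Fyb below both (558 CPM) and Lcp2 above both (169 CPM). Against 3′, T cells of the modified libraries had 2 of 8 members higher and 1 lower (9.22% and 9.69% of genes, 18.9% in all). By library totals 419 genes were higher and 1389 lower in place of 713 and 749, and by DESeq2 360 and 127. Lat stood at 902 and 924 CPM (0.97 ± 0.24, adjusted p = 0.0053), Zap70 at 168 and 238 CPM (0.89 ± 0.25, adjusted p = 0.013) and Themis at 92.2 and 111 CPM (-1.18 ± 0.26, adjusted p = 0.0016). Lck, at 804 and 991 CPM, differed by 0.57 ± 0.23 (adjusted p = 0.084). Without 3′ replicate 1, only the Themis call was left. The Zap70 call was also lost by library totals (adjusted p = 0.067), by DESeq2 (0.070) and without modified 5′ replicate 2 (0.33). Over all kept cells Lck (0.77 ± 0.21), Zap70 (1.10 ± 0.21) and Lat (1.07 ± 0.24) were higher and Themis lower (-0.97 ± 0.22), where 10.2% of genes were called higher and 8.19% lower, 18.4% in all. By library totals that split was 495 higher and 2278 lower, against 1178 and 946, and by DESeq2 853 and 405. Of these 4 member calls, 3 were left by DESeq2 (Themis at an adjusted p of 0.052), 3 without 3′ replicate 2 (Lck at 0.067), 2 by library totals, 0 without 3′ replicate 1, 1 without modified 5′ replicate 1 and 0 without modified 5′ replicate 2.

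Between the modified and the standard 5′ protocol no member was called. In T cells the 8 differences lay between -0.36 ± 0.24 (Lat) and 0.05 ± 0.30 (Themis), 7 of them below 0, with a median of -0.10 against 0.02 over all genes. The edgeR test called 2 of 7730 genes (0.0259%), with 374 at an unadjusted p under 0.05, and DESeq2 called 0. Over all kept cells edgeR called 0 of 11546 genes (0%), with 459 at an unadjusted p under 0.05, DESeq2 called 1, and the member differences lay between -0.53 ± 0.24 (Lat) and 0.07 ± 0.25 (Themis). The standard errors in T cells were 0.23 to 0.30, so the test does not show that both 5′ protocols give equal levels.

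Among the other genes of the pathway, some were higher and some lower in standard 5′ than in 3′ T cells, where 10.1% of all genes were called higher and 12.1% lower. Of 10 receptor and coreceptor genes 3 were higher and 1 lower, of 13 kinases and phosphatases 2 were higher and 4 lower, and of 21 adaptors and effectors 2 were higher and 1 lower. Their median log2 differences were 0.49, -0.27 and -0.27, against -0.07 over all genes. Of the 2 tested B cell counterparts, Blnk was lower (-1.93 ± 0.56). The largest others were Sit1, an adaptor that interacts with SHP2 (1.53 ± 0.30), Malt1, a paracaspase (-1.41 ± 0.29), Sh2d2a, an adaptor of Lck (1.34 ± 0.30), Csk, the kinase that restrains Lck (1.07 ± 0.26), and Cd247, the zeta chain (1.01 ± 0.25). Fyn (-0.49 ± 0.30) and Grap2 (-0.42 ± 0.25) were not called.

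The protocol differences of the members tended to fall with transcript length, though not in strict order, and so did those of all genes. The principal transcripts in GENCODE M21 measure 1235 nt for Lat, 1507 for Skap1, 2185 for Lck, 2245 for Zap70, 2669 for Fyb, 3644 for Lcp2, 4347 for Cd28 and 5082 for Themis. Against the standard 5′ to 3′ difference in T cells, Spearman's rho was -0.83 over the 8 members and -0.55 over 7298 tested genes with a protein-coding transcript, both across genes, which are not independent replicates. By length, the median log2 difference of all genes was 0.55 at 1000 to 2000 nt, 0.14 at 2000 to 3000 nt, -0.23 at 3000 to 4000 nt, -0.48 at 4000 to 5000 nt and -0.69 at 5000 nt and longer. Lat (1.32), Zap70 (1.19) and Lck (0.69) lay above the median of their length class, Skap1 (0.56) lay at it, and Fyb (-0.04) and Themis (-1.23) lay below. In the class of 5000 nt and longer, 25.5% of genes were called lower and 1.02% higher, and in the class of 1000 to 2000 nt 24.1% were called higher and 3.72% lower. Cd28, with a long 3′ untranslated region of 3577 nt, and Lcp2, with 1611 nt, lay above the medians of their classes, and Themis has 2874 nt. Length moves with the protocol difference, and its part in the members' differences was not tested.

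**Figure D4:**
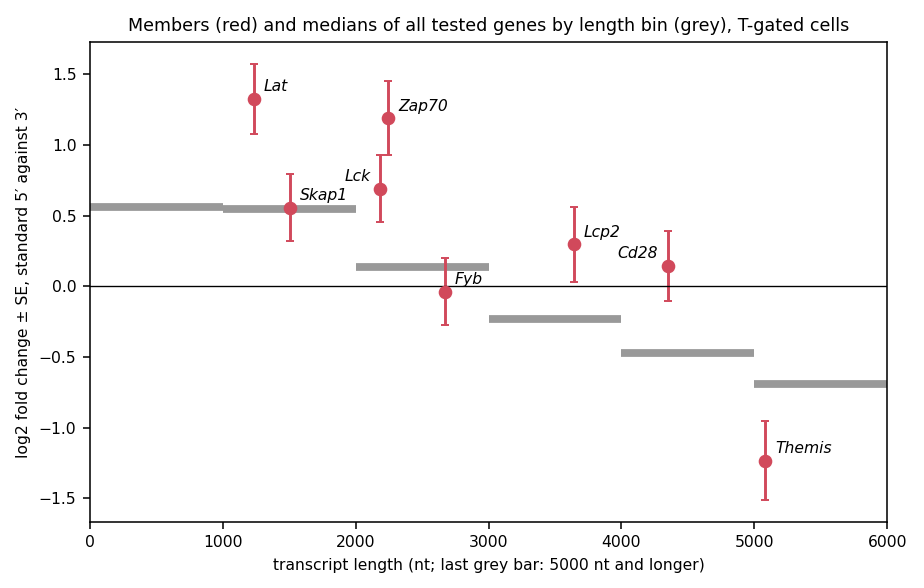
Log2 fold change ± SE of the members (red) between standard 5′ and 3′ T cells against transcript length in nt, with the median of all tested genes in each length class as a grey bar. The bars fall from 0.56 for the shortest class to -0.69 for the longest, and the members run from Lat at 1.32 to Themis at -1.23.

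The T to B difference of the members was not shown to depend on the protocol. In the test of the interaction 0 of 8 members were called for standard 5′ against 3′ (0.137% of 7320 genes, 0.082% higher and 0.0546% lower, 10 genes) and 0 of 8 for modified against standard 5′ (0.0137%, 1 gene). At an unadjusted p under 0.05 there were 356 and 284 genes, and DESeq2 called 0 in both. The estimates had wide errors, with few B counts. For standard 5′ against 3′ they ran from -3.13 ± 1.62 (Lcp2) to 1.92 ± 1.08 (Themis), with Lck at 0.08 ± 0.42.

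Among T cells, Cd28 was higher in CD4-gated than in CD8-gated cells. The CD4 gate (a Cd4 count and no Cd8a or Cd8b1 count) held 286 cells and the CD8 gate 1528, Cd4 itself being sparse. Standard 5′ replicate 1, with 9 CD4-gated cells, was left out. Cd28 stood at 359, 314, 294, 275 and 257 CPM in CD4-gated cells of 3′ replicates 1 and 2, standard 5′ replicate 2 and modified 5′ replicates 1 and 2. In CD8-gated cells of the same libraries it stood at 157, 168, 199.5, 76.3 and 134 CPM. CD4 lay above CD8 in 5 of 5 libraries and the ranges did not overlap (log2 1.01 ± 0.25, adjusted p = 0.0019), with 7 to 14 Cd28 counts per CD4 sum. It was 1 of 8 members called, where 8.46% of 1241 genes were called (3.63% higher, 4.83% lower). By library totals 62 genes were higher and 45 lower in place of 45 and 60, and by DESeq2 14 and 33. With no low-count filter the call was lost (0.63, adjusted p = 0.38), and with cells thinned to 300 counts Cd28 no longer passed the filter.

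The other 7 members did not pass between CD4 and CD8 cells. Lck differed by 0.01 ± 0.16, Skap1 by -0.02 ± 0.18, Zap70 by -0.10 ± 0.31, Lcp2 by -0.12 ± 0.33, Fyb by 0.26 ± 0.18, Lat by 0.32 ± 0.16 and Themis by -0.47 ± 0.30. An alternative added after the data were seen used the 2855 T-gated cells with no Cd8a or Cd8b1 count in place of CD4-gated cells, which raises the counts and mixes in CD8 cells whose Cd8 was missed. Then Cd28 (0.97, adjusted p = 1.2e-07) and Lat (0.27, adjusted p = 0.028) were higher and Themis lower (-0.46, adjusted p = 0.045). Of the other pathway genes outside the gate, Cd5, a receptor that dampens the signal, was higher in CD4-gated cells (1.48 ± 0.24, adjusted p = 1.6e-07).

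The members varied together across the T, NK and B gates, and a few other genes followed them most closely. Over 17 sums of T, NK and B cells, the correlation of each member with the mean of all 8 on a log2(CPM + 10) scale was 0.97 for Lck and Lcp2 (0.970 and 0.966), 0.964 for Skap1, 0.955 for Fyb, 0.943 for Zap70, 0.934 for Lat, 0.910 for Cd28 and 0.682 for Themis. Each member is itself part of that mean, and the sums share libraries. Among 3407 other genes with at least 50 CPM in T cells, the 10 most alike were Saraf (0.987), Fam189b (0.983), Cd27 (0.981), Atp1b3 (0.970), Leprotl1 (0.962), Tcf7 (0.949), Lef1 (0.948), Fxyd5 (0.944), Tecpr1 (0.937) and Cd247 (0.934). Saraf stood at a mean of 476 CPM in T, 175 in NK and 25.0 in B cells, and Cd27, a costimulatory receptor, at 368, 102 and 4.68 CPM.

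Some annotated genes share exon positions with members, and whether the counting used strand is not given in the sources used here. Gm2245, antisense to Fyb, had 153 counts in T-gated and 41 in B-gated cells, and 4930469K13Rik, antisense to Lcp2, had 24 and 0. Mir8119 overlaps an exon of Lck, 2010300F17Rik one of Skap1 and 4930519F09Rik one of Themis, so the levels of these 5 members are uncertain to that extent.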

How the data were processed

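Gene expression was measured in single cells of 6 libraries, 2 for each of 3 protocols. The authors deposited raw counts for each cell barcode and gene symbol, whole numbers with no normalization, per the file headers and values. The build mm10 and, for replicate 2, Seurat are named in the submitters' processing notes; the sources used here do not give the aligner, the annotation, the use of strand, the collapsing of molecular identifiers or the rule that called cells. If molecules were not collapsed, amplification copies enter the counts.

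Barcodes were kept from 200 genes up and with no more than 20% of counts from mitochondrial genes. Counts were summed per library and gate, and sums of under 20 cells were left out. Gates were: own markers at least 2 counts, no count of the excluding classes and at most 1 stray NK or myeloid count. The NK gate also allowed 1 count of the T markers Trbc1 and Trbc2 together. edgeR 4.0.16 (R 4.3.3; quasi-likelihood test, TMM, filterByExpr) was fitted over all genes, with Benjamini-Hochberg adjustment at 0.05. DESeq2 1.42.0 was an alternative. The protocol fits used the group alone, the gate fits the library as a block. The fits, other than that of the T to B interaction, were run on simulated data. Values printed after ± are standard errors unless named SD, and the intervals printed with some shares and ratios are exact 95% intervals. A count of 0 allows up to 3 counts.

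Libraries with the same replicate number share their extraction text and deviated together (correlations 0.537, 0.455 and 0.333 over 9053 genes). The labels do not say that the number marks a shared animal or day. The protocol fits of the report therefore left it out, and an alternative fit used it as a block.

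The members, gene lists and tests were chosen with earlier results of these data known. All 8 members are described, and other genes are named where they passed in a contrast (at most 6, largest first) or are a near relative of a member; likeness was ranked by correlation.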

Additional observations from a re-analysis of the deposited data

Results flagged for a closer look

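Within-library differences of the 8 members were screened for a library far from the others by Dixon's ratio, which picked out 2 of 40 groups (32 of 5 libraries and 8 of 6). Chance picks out about 1 group in 20. Both were Cd28 in the NK gate of modified 5′ replicate 1, which had 0 Cd28 counts among 39 cells. The T to NK difference there was 4.54 on the log2 scale against 1.72 to 2.00 in the other 4 libraries, and the NK to B difference was -0.81 against 2.15 to 3.01. With 2 to 3 Cd28 counts in the NK sums of the other libraries, the depth does not separate these values from counting error.

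Counts of the members also lay in barcodes that did not pass the cell filter, above the limit of 3 counts. Over the 6 libraries these were 146 counts for Lck, 27 for Zap70, 161 for Lat, 38 for Cd28, 62 for Skap1, 24 for Themis, 125 for Fyb and 43 for Lcp2. Standard 5′ replicate 1, where 34.0% of barcodes were kept against 78.3 to 89.9% in the other libraries, gave 83 of these counts for Lck, 94 for Lat and 32 for Skap1. Without that library the totals were 63 for Lck, 15 for Zap70, 67 for Lat, 20 for Cd28, 30 for Skap1, 14 for Themis, 82 for Fyb and 32 for Lcp2.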

How the results depend on the processing

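The members' log2 differences were recomputed 1235 times under other settings; 1129 kept their direction and their side of the threshold, 42 lost the call (27 with a library left out), 3 gained one and 61 turned sign (38 with a library left out). None of the 61 had been called with the settings of the report. By library totals without TMM, which moved the median of all genes to -0.39 (standard 5′ against 3′, all kept cells), 3 in place of 5 members passed in that comparison and 2 in place of 4 for modified 5′ against 3′. With cells thinned to 300 counts, 3 in place of 6 passed for T against NK (7 tested) and 0 in place of 1 for CD4 against CD8 (4 tested). With no low-count filter 0 passed for CD4 against CD8, and with CD8-negative cells in place of CD4, 3 passed. With each library left out in turn, the members called ranged from 2 to 5 (standard 5′ against 3′, all kept cells), 0 to 4 (modified 5′ against 3′, all kept cells), 1 to 4 and 1 to 3 (the same in T cells). The cause of these changes was not tested.

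For the log2 differences that turned sign, the values follow by setting. By library totals they were Fyb -0.21 (standard 5′ against 3′, all kept cells), Cd28 -0.21 (modified 5′ against 3′, all kept cells), Cd28 -0.072 (standard 5′ against 3′, T cells), Cd28 -0.19 (modified 5′ against 3′, T cells), Skap1 0.040 (CD4 against CD8), Lcp2 -0.014 (T to B interaction, modified against standard 5′). Over all barcodes they were Lcp2 0.0034 (modified against standard 5′, all kept cells). With no low-count filter they were Fyb 0.0080 and Lcp2 0.044 (modified against standard 5′, T cells), Lcp2 0.24 (T against myeloid), Lck -0.38 and Lat -0.066 and Fyb -0.12 (CD4 against CD8). With the replicate block they were Lcp2 0.041 (modified against standard 5′, T cells). With gates of 3 marker counts they were Fyb 0.013 (modified against standard 5′, T cells), Lck -0.062 (T to B interaction, standard 5′ against 3′). By DESeq2 they were Lck -0.013 (CD4 against CD8), Cd28 -0.73 (T to B interaction, standard 5′ against 3′). With cells thinned to 300 counts they were Lck -0.17 (CD4 against CD8). With CD8-negative cells in place of CD4 they were Zap70 0.15 and Skap1 0.15 and Lcp2 0.20 (CD4 against CD8). With 1 stray marker count allowed they were Lcp2 -0.010 (T to B interaction, modified against standard 5′). The ranges with each library left out follow for the differences that turned. For T to B interaction, modified against standard 5′, they were -4.37 to 2.19 for Cd28, -3.17 to 3.10 for Lcp2. For T to B interaction, standard 5′ against 3′, they were -3.11 to 4.29 for Cd28, -0.41 to 0.73 for Fyb, -0.43 to 1.08 for Lat, -0.0014 to 0.66 for Lck, -3.46 to 0.10 for Lcp2, -3.26 to 4.05 for Zap70. For modified 5′ against 3′, T cells, they were -0.13 to 0.25 for Cd28, -0.19 to 0.027 for Fyb. For modified 5′ against 3′, all kept cells, they were -0.0046 to 0.22 for Cd28, -0.12 to 0.021 for Fyb. For modified against standard 5′, T cells, they were -0.28 to 0.099 for Cd28, -0.19 to 0.050 for Fyb, -0.29 to 0.031 for Lck, -0.22 to 0.18 for Lcp2, -0.10 to 0.34 for Themis. For standard 5′ against 3′, T cells, they were -0.13 to 0.12 for Fyb. For CD4 against CD8, they were -0.11 to 0.052 for Lck, -0.44 to 0.16 for Lcp2, -0.11 to 0.031 for Skap1. For modified against standard 5′, all kept cells, they were -0.29 to 0.14 for Lcp2, -0.050 to 0.41 for Themis.

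Over all genes, DESeq2 called 1584 in place of 2689 genes (standard 5′ against 3′) and 1258 in place of 2124 (modified 5′ against 3′), in T cells 534 in place of 1719 and 487 in place of 1462, and 47 in place of 105 for CD4 against CD8. With no filter the counts were 4094 in place of 1661 (T against B), 1462 in place of 724 (T against NK), 2122 in place of 1052 (NK against B), 3303 in place of 1438 (T against myeloid) and 253 in place of 105 (CD4 against CD8), and for modified against standard 5′ 65 in place of 0 (all kept cells) and 16 in place of 2 (T cells). Thinned, they were 779, 374, 547, 636 and 53 for the 5 gate comparisons in that order. CD8-negative cells gave 214. Without standard 5′ replicate 2, 221 genes passed for standard 5′ against 3′ (235 in T cells), and without 3′ replicate 1, 966 (749). For modified 5′ against 3′ the counts were 642 without 3′ replicate 1, 416 without modified 5′ replicate 1 and 490 without modified 5′ replicate 2, and in T cells 686 without 3′ replicate 1 and 696 without modified 5′ replicate 2. CD4 against CD8 fell to 50 without modified 5′ replicate 2. The T to B interaction for standard 5′ against 3′ gave 10 genes, 0 by DESeq2, 2 with no filter, 3 with gates of 3 counts and 1 to 16 with a library left out. For modified against standard 5′ in T cells 4 to 48 genes passed with a library left out, in place of 2.

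With the replicate number as a block, 4127 in place of 2689 genes passed for standard 5′ against 3′, 3820 in place of 2124 for modified 5′ against 3′ and 21 in place of 0 for modified against standard 5′; in T cells these were 1569, 1525 and 0 in place of 1719, 1462 and 2. The block changed no other call: 5, 4 and 0 members passed as before, and 4, 3 and 0 in T cells.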
